A study of Homo sapiens with 8 samples.

Results

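The replication-dependent histone genes were examined in HCT-116, a cell line from a human colorectal cancer, together with NPAT and SLBP, 2 regulators of these genes. The members were chosen by name: every probe whose gene symbol in the scanner files begins with HIST1H, HIST2H, HIST3H or HIST4H, plus NPAT and SLBP. This gave 72 of the 32080 gene names on the array, of which 70 are histone genes measured by 84 probes. A probe entered the tests if both arrays of some group measured it well above background, and 64 histone genes (74 probes) passed, as did NPAT and SLBP. Where a gene had more than 1 tested probe, the brightest stood for the gene.

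There were 4 groups of 2 arrays, all from cells grown in DMEM with serum. WT was the untreated parental line, and WT+NU6102 was the same line given 20 µM of NU6102, an inhibitor of CDK1 and CDK2, over 24 h. CDK2-/- was a knockout of the CDK2 gene in HCT-116, left untreated, and R50 was an NU6102-resistant HCT-116 line kept in the drug at 50 µM. Whether CDK2-/- or R50 is a single clone, and whether the WT cells on the arrays carried the eGFP marker of the study's mixed cultures, is not given in the labels. Nothing in the labels says that replicates were separate cultures, so the p-values measure the spread between these arrays, which may be technical. All values are log2 processed signal after subtraction of the 75th percentile of the array, and differences are log2 fold changes with the standard error (SE) of a limma fit over all 28677 tested probes. A gene was called higher or lower at an adjusted p under 0.05, whatever the size of its change.

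Replication-dependent histone genes supply the H1 linker and the H2A, H2B, H3 and H4 core histones that package newly made DNA, and their mRNAs accumulate in S phase. NPAT, a substrate of CDK2 with cyclin E, switches on their transcription. The mRNAs end in a stem-loop in place of a poly(A) tail, and SLBP binds that stem-loop, guides processing of the 3′ end and follows the mRNA to the ribosome. The labelling kit named in the labels copies RNA from an oligo(dT) primer, so mRNAs without a poly(A) tail are underrepresented in these levels to an unknown degree, and some of these genes also give polyadenylated transcripts.

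The stem-loop can be read in the array's own probes, and it is shown because it defines this gene group and lies in the probes discussed further on. The 60-base probes of 6 tested genes held it whole. It is given 5′ to 3′ as in the RNA strand, in capitals, with up to 5 probe bases on either side in lower case, and hg19 positions are those of the whole probe: HIST1H2AI chr6:27776386-27776445 (plus strand), HIST1H2BE chr6:26184399-26184458 (plus), HIST1H2BF chr6:26200153-26200212 (plus), HIST1H3H chr6:27778255-27778314 (plus), HIST1H4K chr6:27798954-27799013 (minus) and HIST2H3A chr1:149824626-149824685 (plus).
HIST1H2AI: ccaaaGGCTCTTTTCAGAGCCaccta
HIST1H2BE: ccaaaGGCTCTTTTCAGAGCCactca
HIST1H2BF: ccaaaGGCTCTTTTAAGAGCCa
HIST1H3H: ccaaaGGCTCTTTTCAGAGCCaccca
HIST1H4K: caaaaGGCCCTTTTTAGGGCCcc
HIST2H3A: caaaaGGCTCTTTTCAGAGCCacc
The left and right arms pair with each other around a short loop rich in T (U in the RNA), and the HIST1H4K copy has other bases in its arms than the rest. Another 3 tested probes, of HIST1H2AG, HIST1H4A and HIST3H2BB, held the left arm.

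The WT and WT+NU6102 arrays were on slide 2 and the CDK2-/- and R50 arrays on slide 1. The effect of NU6102 on WT, and the difference of R50 from CDK2-/-, were thus measured within a slide, while for CDK2-/- or R50 against WT an effect of the slide and one of the group cannot be told apart. Spots well above background numbered from 32376 to 36206 per array. Of the 74 tested histone probes, 28 shared a run of at least 20 bases with a probe of another histone gene, so the level given for 1 gene can hold signal of its near copies. CDK2 itself stood at -0.76 on both WT arrays, at -0.44 and -0.42 in WT+NU6102, at -1.56 and -1.51 in CDK2-/- and at -1.10 and -1.09 in R50. It was thus lowest in the knockout, where its probe still stood above background. Of 6 colorectal epithelium markers, 4 (EPCAM, CDH1, KRT8 and KRT18) were detected on all 8 arrays, while CEACAM5 and VIL1 were above background on none. These markers moved too: with NU6102 KRT8 (0.65), KRT18 (0.46) and EPCAM (0.40) were higher and CDH1 lower (-0.37), and in R50 against WT KRT8 (0.83), KRT18 (0.73) and CDH1 (0.60) were higher. In CDK2-/- against WT KRT8 (0.33) and CDH1 (0.26) were higher. Of 7 markers of other cell types, ALB and COL1A2 were above background on no array and PECAM1 had no tested probe. GFAP was above background on the WT arrays alone and CD3E on those of CDK2-/- and R50 alone, while 1 PTPRC probe and COL1A1 were detected on all 8. COL1A1 was lower with NU6102 (-0.75) and higher in CDK2-/- (1.22) and R50 (0.66) than in WT, and the part of these markers in the histone results was not tested.

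Treatment of WT cells with NU6102 for 24 h lowered almost the whole histone gene group. Of the 64 histone genes tested, 55 were lower and 3 higher, where 21.9% of all tested genes were lower and 25.2% higher. The median change of the histone genes was -0.48, against 0.04 for all tested genes. All 14 H4 genes were lower, with a median of -0.81. Of the H3 genes, 9 of 13 were lower and 2 higher (median -0.68), of the H2A genes 13 of 16 were lower and 1 higher (median -0.48), and of the H2B genes 16 of 17 were lower (median -0.35). Of the 4 H1 linker genes tested, 3 were lower, with a median over the class of -0.54. The changes were small for single genes: 2 histone genes fell by at least 2-fold and 0 rose by as much, beside 5.51% and 1.16% of all tested genes. On the WT+NU6102 arrays the median of the histone genes stood 0.54 and 0.42 below the WT mean, and on the WT arrays it stood 0.02 above and 0.02 below it. In cultures measured in bulk, fewer cells in S phase and less histone mRNA per cell cannot be told apart. With labelling from oligo(dT), a changed share of transcripts with a poly(A) tail cannot be told apart from these either. The study describes WT cells given NU6102 as arrested in G2/M, and it found fewer R50 than WT cells in S phase at a given time. The part of the cell cycle in the array values was not tested.

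**Figure D1:**
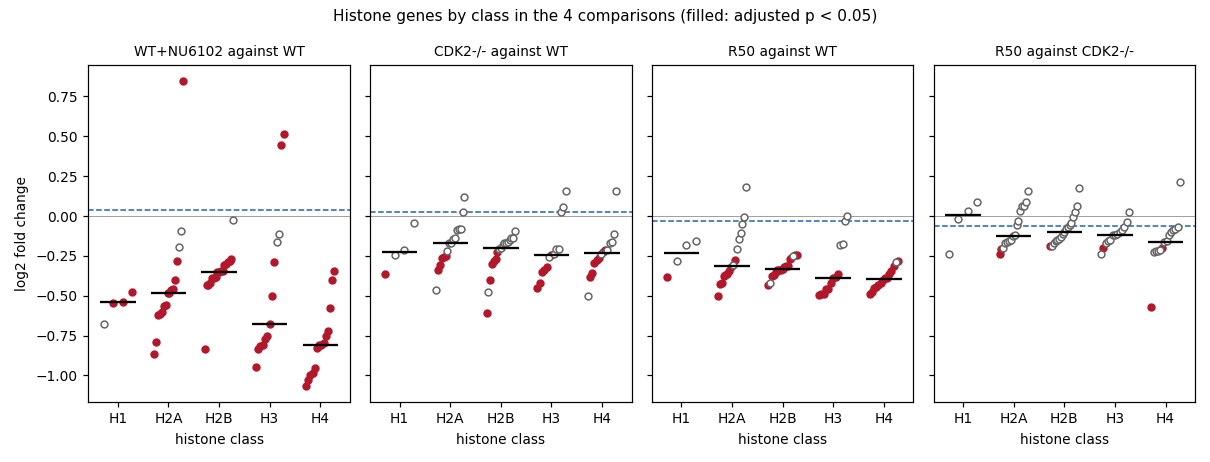
Each point is 1 tested histone gene, placed by class (x axis) and log2 fold change (y axis) in each of the 4 comparisons; filled points have an adjusted p under 0.05, black bars are class medians and the dashed line is the median of all tested genes. In WT+NU6102 against WT nearly all points lie below 0, and the H3 and H4 medians (-0.68 and -0.81) lie lower than that of H2B (-0.35).

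**Figure D2:**
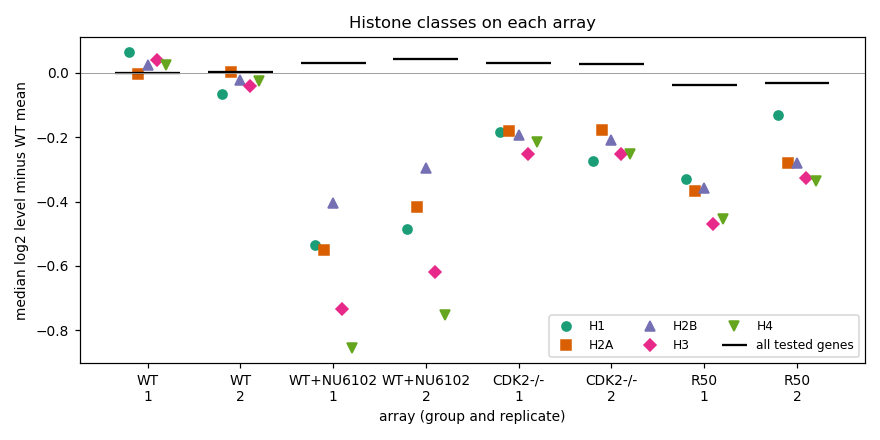
For each of the 8 arrays (x axis) the points give the median over the genes of each histone class of the log2 level less the WT mean (y axis), and the black bar gives the same over all tested genes. Both WT+NU6102 arrays lie below all others in H1, H2A, H3 and H4 (H4 medians -0.86 and -0.75), while in H2B R50 replicate 1 (-0.36) lies below WT+NU6102 replicate 2 (-0.30).

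The largest falls among genes above background on all 4 arrays were in H4, the core histone with the fewest sequence variants. HIST1H4A stood at 3.84 and 3.71 on the WT arrays and at 2.65 and 2.84 with NU6102, a change of -1.03 (SE 0.10, adjusted p = 0.000821). HIST4H4, the single gene of its cluster, stood at -1.53 and -1.58 in WT and at -2.56 and -2.54 with NU6102 (-0.99, SE 0.06, adjusted p = 0.000219). HIST1H4J stood at 4.33 and 4.28 in WT and at 3.29 and 3.37 with NU6102 (-0.98, SE 0.05, adjusted p = 0.000176). In each of these genes both treated arrays lay below both WT arrays by far more than duplicates differed. HIST1H4G was above background on no WT+NU6102 array and was at least 1.85-fold higher in WT (adjusted p = 0.0211). HIST1H4C had a smaller fall: it stood at 8.32 and 8.35 in WT and at 7.88 and 7.99 with NU6102 (-0.40, SE 0.06, adjusted p = 0.0026). HIST2H2AC was 1 of the 6 genes without a call, at 4.21 and 4.27 in WT and at 4.12 and 4.18 with NU6102 (-0.09, SE 0.05, adjusted p = 0.222). HIST1H4C and HIST2H2AC were named after their values were seen.

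On the probes that stand for them, the histone genes known to give polyadenylated transcripts as well moved in the same direction. All 7 (HIST1H1C, HIST1H2AC, HIST1H2BC, HIST1H2BD, HIST1H2BJ, HIST1H2BK and HIST2H2BE) were lower with NU6102, with changes between -0.54 and -0.28. These are not 7 separate readings, as the HIST1H2BK probe shares a run of 32 bases with HIST1H2BD and 20 with HIST1H2BC. Whether the probes read polyadenylated or stem-loop transcripts was not tested. Another HIST1H2BK probe, described further on, rose by 0.37. HIST1H1C, a linker histone, stood at 4.94 and 4.82 in WT and at 4.27 and 4.39 with NU6102 (-0.54, SE 0.07, adjusted p = 0.00217). Without these 7 genes, 48 of 57 histone genes were lower and 3 higher, with a median of -0.54. Of all 13 histone genes named for this comparison, 10 kept their call whichever array was left out. HIST1H2BC, HIST1H2BJ and HIST2H2BE lost it without WT replicate 1 or WT+NU6102 replicate 1, with an adjusted p of up to 0.109. The methods' t-test with Benjamini-Hochberg adjustment called 14 lower (21.9%) and 3 higher (4.69%), in place of 55 and 3, where it called 8.95% of all genes lower and 11.7% higher.

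Only HIST1H2APS1, HIST3H3 and HIST1H3C rose with NU6102. HIST1H2APS1, an H2A pseudogene, stood at -3.17 and -3.22 in WT and at -2.29 and -2.40 with NU6102 (0.85, SE 0.07, adjusted p = 0.000538). HIST3H3 stood at 6.07 and 5.99 in WT and at 6.53 and 6.56 with NU6102 (0.51, SE 0.06, adjusted p = 0.00181). HIST1H3C stood at 4.94 and 4.90 in WT and at 5.35 and 5.39 with NU6102 (0.44, SE 0.05, adjusted p = 0.00156). HIST3H3 is known as a testis histone, yet its probe was well above background on all 8 arrays. The H3 probes of 4 genes are printed because they cover the same stretch of the coding sequence and give opposite results, with changes of -0.75 for HIST1H3B and -0.29 for HIST2H3D, a pair chosen after their values were seen. Capitals mark the bases that differ from the HIST1H3B probe where both overlap, and the files place the probes on hg19 at chr6:26031922-26031981 (HIST1H3B, minus strand), chr1:120904981-120905040 (HIST2H3D, plus), chr1:228612646-228612705 (HIST3H3, minus) and chr6:26045965-26046024 (HIST1H3C, plus).
HIST1H3B: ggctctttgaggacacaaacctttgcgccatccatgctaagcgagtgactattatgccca
HIST2H3D: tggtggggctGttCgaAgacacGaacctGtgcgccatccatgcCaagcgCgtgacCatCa
HIST3H3: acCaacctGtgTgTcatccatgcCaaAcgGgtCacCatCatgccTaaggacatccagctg
HIST1H3C: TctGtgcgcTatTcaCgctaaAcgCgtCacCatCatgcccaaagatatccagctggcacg
The HIST2H3D, HIST3H3 and HIST1H3C probes matched that of HIST1H3B in 45 of 54, 35 of 46 and 31 of 41 overlapping bases. The HIST1H3C probe came closest to that of HIST3H3, at 44 of 55 bases. H3F3B, which encodes the replication-independent H3.3, also rose, by 0.48 (SE 0.05, adjusted p = 0.00134). H3F3A, also a replication-independent H3 gene, had no call with NU6102 on any tested probe. Its probes changed by 0.02, -0.05, -0.09 and 0.02, with an adjusted p between 0.261 and 0.862. Cross-hybridization between H3 probes was not tested.

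For 9 histone genes more than 1 probe was tested, and their probes did not always move together. HIST1H4K had a coding probe that begins at base 157 of its transcript (chr6:27799089-27799148, minus strand) and a probe over the stem-loop printed above that begins at base 292. The coding probe reads
HIST1H4K: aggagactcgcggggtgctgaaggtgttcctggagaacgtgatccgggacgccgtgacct
and stood at 5.38 and 5.30 in WT and at 4.49 and 4.58 with NU6102 (-0.81, SE 0.07, adjusted p = 0.000493). The stem-loop probe stood at 3.43 and 3.33 in WT and at 1.75 and 1.72 with NU6102 (-1.64, SE 0.06, adjusted p = 9.33e-05), a 3.13-fold fall. It also showed a larger change than the coding probe in CDK2-/- (-0.77 against -0.26) and in R50 against WT (-0.71 against -0.34). The stem-loop probe shares a run of 37 bases with the HIST1H4J probe, and the coding probe shares 26 bases with HIST1H4H. The difference between the probes was not tested. Other genes did not all show such a split with NU6102. In HIST1H3H the stem-loop probe changed by -0.88 and the coding probe by -0.84. In HIST1H4A the probe with the left arm changed by -1.25 and the other by -1.03. The probes of HIST1H4L, without stem-loop letters, changed by -0.98 and -0.35. These genes were added after their values were seen. The 9 tested probes with the left arm or the whole stem-loop had a median change with NU6102 of -0.83, and the 65 without had a median of -0.48. Among the 9, HIST1H2BE, near background at -3.67 and -4.11 in WT and at -3.56 and -4.27 with NU6102, had a change of -0.02 (SE 0.26).

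Probes far downstream of the coding region went the other way in 2 polyadenylated genes. The coding probe of HIST1H2BK, which begins at base 141, stood at 5.53 and 5.44 in WT, at 5.03 and 5.17 with NU6102, at 5.34 and 5.33 in CDK2-/- and at 5.11 and 5.19 in R50. Its other probe begins at base 660 of the transcript, 8246 bases away on chromosome 6 of hg19, and stood at 1.82 and 1.81 in WT, at 2.15 and 2.22 with NU6102, at 2.36 and 2.23 in CDK2-/- and at 1.80 and 1.94 in R50. The coding probe fell with NU6102 (-0.39, SE 0.07, adjusted p = 0.00632), whereas the downstream probe rose (0.37, SE 0.07, adjusted p = 0.00994). The downstream probe also rose in CDK2-/- against WT (0.48, SE 0.07, adjusted p = 0.00642), where the coding probe changed by -0.15 (adjusted p = 0.157). With the mean of both probes, HIST1H2BK changed by -0.01 with NU6102 (adjusted p = 0.91).

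HIST1H2AC showed the split in R50. Its coding probe, from base 88, stood at 3.71 and 3.61 in WT and at 3.22 and 3.37 in R50 (-0.37, SE 0.08, adjusted p = 0.0313). Its downstream probe is assigned to another transcript of the gene, where it begins at base 1100. On hg19 it lies 14419 bases away from the first probe of the gene. It stood at -2.19 and -2.09 in WT and at -1.56 and -1.60 in R50 (0.56, SE 0.06, adjusted p = 0.00382). The 2 start bases are thus not counted on 1 transcript, and whether both probes read the same mRNA was not tested. With the mean of its 3 probes, HIST1H2AC changed by -0.02 in R50 against WT (adjusted p = 0.851), so its call there rests on which probe stands for the gene. With NU6102 both probes fell, by 0.47 and 0.41. The difference between probes of 1 gene was not tested, and these genes were described after their values were seen.

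**Figure D3:**
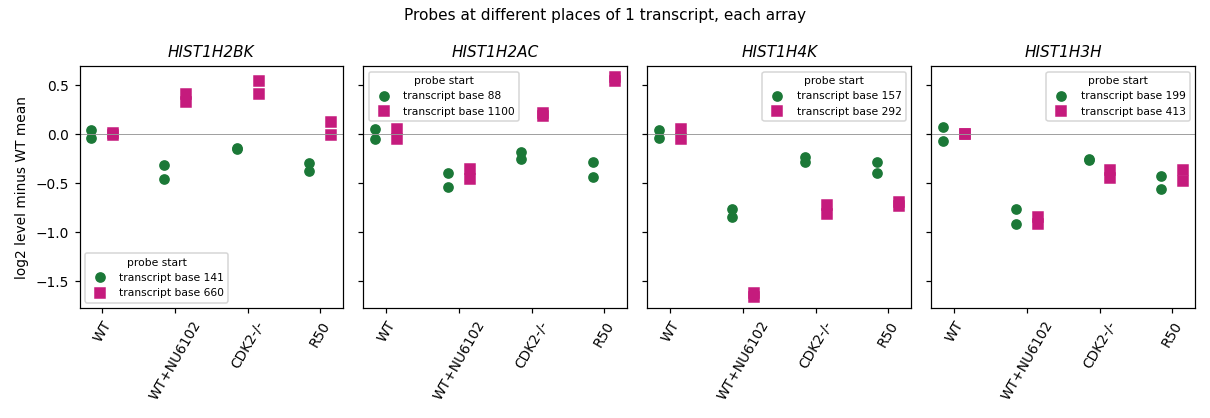
Log2 level of 2 probes of the same gene on each array less the WT mean of that probe (y axis) in the 4 groups (x axis), for HIST1H2BK, HIST1H2AC, HIST1H4K and HIST1H3H. Circles are coding probes and squares the probe further downstream, labelled by its first transcript base. The 2 HIST1H2AC probes are assigned to different transcripts of the gene, so their first bases are not on 1 scale. The squares of HIST1H2BK lie above 0 in WT+NU6102 and CDK2-/- where the circles lie below, and those of HIST1H4K lie lowest with NU6102, at a mean change of -1.64.

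In CDK2-/- against WT some genes of every histone class were lower. Of 64 histone genes, 25 were lower and 0 higher, where 15.1% and 17.5% of all tested genes were lower and higher, and the median was -0.22 against 0.03 for all genes. By unadjusted p under 0.05, limma gave 40 lower and 1 higher. By class, 1 of 4 H1, 5 of 16 H2A, 6 of 17 H2B, 6 of 13 H3 and 7 of 14 H4 genes were lower. At 2-fold the count was 0 in either direction, beside 2.30% lower and 2.56% higher of all genes. HIST3H2BB, an H2B gene outside the main cluster, stood at 1.51 and 1.44 in WT and at 0.93 and 0.80 in CDK2-/- (-0.61, SE 0.08, adjusted p = 0.00459). HIST2H3A stood at 5.46 and 5.38 in WT and at 4.99 and 4.94 in CDK2-/- (-0.45, SE 0.08, adjusted p = 0.00832). HIST1H3F stood at 4.13 and 4.05 in WT and at 3.65 and 3.68 in CDK2-/- (-0.42, SE 0.09, adjusted p = 0.0205). HIST4H4 was at -1.42 and -1.39 in CDK2-/-, close to its WT level, with a difference of 0.15 (SE 0.06, adjusted p = 0.102).

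The count of lower genes in CDK2-/- rested on all 4 arrays compared. It was 4 without WT replicate 1, 8 without WT replicate 2, 6 without CDK2-/- replicate 1 and 3 without CDK2-/- replicate 2, while the median stayed between -0.24 and -0.19. In the same order these are 6.25%, 12.5%, 9.38% and 4.69% of the histone genes, beside 9.18%, 9.79%, 10.2% and 9.19% of all genes. With an array of either group left out, the histone share was thus below that of all genes in 3 of 4 cases, and the higher share of lower calls seen with all arrays was not kept. HIST3H2BB kept its call whichever array was left out, HIST2H3A lost it without WT replicate 1 or CDK2-/- replicate 2, and HIST1H3F lost it without any 1 of the 4. Of the polyadenylated genes HIST1H2BC alone was called (-0.23, SE 0.06, adjusted p = 0.0451), and leaving out any array of WT, WT+NU6102 or CDK2-/- took that call away.

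In R50 against WT most histone genes were lower. Of 64 genes, 47 were lower and 0 higher, where 13.6% and 10.9% of all tested genes were lower and higher, and the median was -0.35 against -0.03. By unadjusted p under 0.05, limma gave 51 lower and 1 higher. In this comparison 13 of 14 H4, 9 of 13 H3, 15 of 17 H2B, 9 of 16 H2A and 1 of 4 H1 genes were lower. At 2-fold the count was again 0 in either direction, beside 0.948% lower and 1.78% higher of all genes. HIST1H2AI stood at 2.43 and 2.50 in WT and at 1.96 and 1.97 in R50 (-0.50, SE 0.06, adjusted p = 0.0044). HIST1H3H stood at 3.95 and 3.81 in WT and at 3.32 and 3.45 in R50 (-0.50, SE 0.08, adjusted p = 0.0137). HIST1H3F was at 3.48 and 3.71 in R50 (-0.49, SE 0.09, adjusted p = 0.0182). Of the polyadenylated genes, 5 of 7 were lower, and HIST1H1C (-0.18, adjusted p = 0.129) and HIST2H2BE (-0.25, adjusted p = 0.103) did not pass.

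This count too depended on single arrays, though far less on R50 replicate 2 than on the arrays named here. It was 5 without WT replicate 1, 9 without WT replicate 2 and 6 without R50 replicate 1, with medians of -0.32, -0.36 and -0.30. These are 7.81%, 14.1% and 9.38% of the histone genes, beside 4.69%, 5.13% and 5.72% of all genes, so the share of all genes fell as well. HIST1H2AI kept its call whichever array was left out. HIST1H3H lost it without WT replicate 1 or R50 replicate 1, HIST1H3F without either WT array or R50 replicate 1, and each of the 5 polyadenylated genes without at least 3 arrays in turn. The methods' t-test with Benjamini-Hochberg adjustment called 0 lower and 0 higher, where it called 0.0308% of all genes lower and 0.0103% higher, and gave 43 lower and 0 higher at an unadjusted p under 0.05.

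Few of these genes had a call between R50 and CDK2-/-, which does not show that the groups were alike. Of 64 histone genes, 6 were lower in R50 and 0 higher, where 21.2% and 15.6% of all tested genes were lower and higher. Without adjustment, limma gave 18 lower and 0 higher at p under 0.05. The median was -0.12 against -0.06 for all genes, and at 2-fold the count was 0 in either direction, beside 2.38% lower and 2.88% higher. HIST4H4 had the largest difference: it stood at -1.42 and -1.39 in CDK2-/- and at -2.04 and -1.91 in R50 (-0.57, SE 0.06, adjusted p = 0.00146), and kept its call whichever array was left out. HIST1H2AG stood at 3.24 and 3.18 in CDK2-/- and at 2.92 and 3.02 in R50 (-0.24, SE 0.06, adjusted p = 0.0352). HIST1H2AD stood at 5.20 and 5.15 in CDK2-/- and at 4.96 and 4.99 in R50 (-0.21, SE 0.05, adjusted p = 0.0322). Both lost their call without any 1 array of WT, CDK2-/- or R50. The count of 6 became 1 without either WT array, without either CDK2-/- array or without R50 replicate 1, and 2 without R50 replicate 2, while between 13% and 19% of all genes were lower in these settings.

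Across the 4 groups together, the F-test at an adjusted p under 0.001 found 12 of 64 histone genes (18.8%), against 23.5% of all tested genes. The smallest p-values were those of HIST4H4, HIST1H4J and HIST1H2BF, with adjusted p = 0.000164, 0.000226 and 0.000538. HIST1H2BF stood at 2.87 and 2.98 in WT, at 2.08 and 2.10 with NU6102, at 2.56 and 2.50 in CDK2-/- and at 2.53 and 2.58 in R50. Its levels thus put WT highest and WT+NU6102 lowest, with CDK2-/- and R50 between and overlapping. The count of 12 fell to 0 or 1 when any 1 of the 8 arrays was left out, while the share of all genes fell to between 3.75% and 6.65%.

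SLBP, the stem-loop binding protein, rose with NU6102 and in CDK2-/-. It stood at 4.39 and 4.34 in WT, at 4.77 and 4.76 with NU6102, at 4.81 and 4.78 in CDK2-/- and at 4.18 and 4.24 in R50. It was higher with NU6102 (0.40, SE 0.05, adjusted p = 0.00175) and in CDK2-/- (0.43, SE 0.05, adjusted p = 0.0024) than in WT. R50 lay below both WT arrays by 0.16 on average (SE 0.05), which did not pass the test (adjusted p = 0.0734), and below CDK2-/- by 0.59 (adjusted p = 0.000757). The order was thus CDK2-/- and WT+NU6102, then WT, then R50, and the arrays of these groups did not overlap, though WT+NU6102 and CDK2-/- differed by little and were not tested against each other.

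NPAT, the transcriptional coactivator, had no call in any comparison. It stood at -2.25 and -2.30 in WT, at -2.06 and -2.18 with NU6102, at -2.16 and -2.41 in CDK2-/- and at -2.64 and -2.51 in R50. The differences from WT were 0.15 with NU6102 (SE 0.10, adjusted p = 0.287), -0.01 in CDK2-/- (SE 0.10, adjusted p = 0.941) and -0.30 in R50 (SE 0.10, adjusted p = 0.0927). R50 was below CDK2-/- by 0.29 (SE 0.10, adjusted p = 0.0824), and without CDK2-/- replicate 2 that difference was -0.41 and passed (adjusted p = 0.0412). The arrays measure NPAT mRNA and not its phosphorylation.

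**Figure D4:**
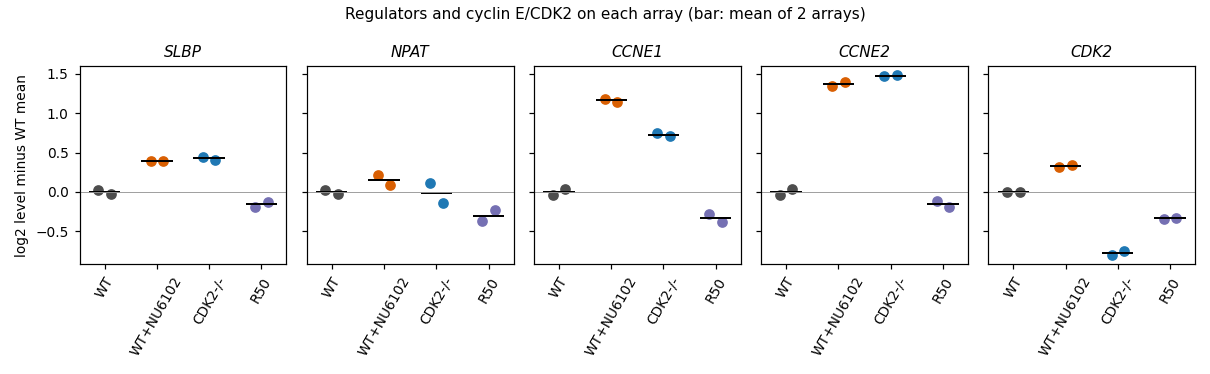
Log2 level on each array less the WT mean (y axis) of SLBP, NPAT, CCNE1, CCNE2 and CDK2 in the 4 groups (x axis), with a bar at the mean of 2 arrays. SLBP and both cyclin E genes are above WT in WT+NU6102 and CDK2-/- and not in R50, and NPAT stays within 0.37 of its WT mean on every array.

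The genes for cyclin E, the partner of CDK2 that acts on NPAT, were higher in the same groups as SLBP. CCNE2 stood at 1.16 and 1.23 in WT, at 2.54 and 2.60 with NU6102, at 2.66 and 2.67 in CDK2-/- and at a mean of 1.04 (SD 0.053, n = 2) in R50. It was higher with NU6102 (1.37, SE 0.05, adjusted p = 0.000111) and in CDK2-/- (1.47, SE 0.05, adjusted p = 7.26e-05) than in WT. CCNE1 was higher by 1.17 and 0.73 in the same comparisons (adjusted p = 0.000166 and 0.000794). In R50 against WT, CCNE1 was lower by 0.33 (adjusted p = 0.0158). POU2F1, the octamer-binding factor, fell with NU6102 (-0.45, SE 0.10, adjusted p = 0.0146). Of all 7 genes listed for histone gene transcription, 3 were higher and 1 lower with NU6102, beside 25.2% and 21.9% of all tested genes. In CDK2-/- against WT 4 were higher and 1 lower, beside 17.5% and 15.1%. In R50 against WT 0 were higher and 3 lower, beside 10.9% and 13.6%. In R50 against CDK2-/- 1 was higher and 5 lower, beside 15.6% and 21.2%.

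Genes that make or remove the stem-loop end showed mixed changes. Of 14 genes for histone pre-mRNA processing, 6 were higher and 2 lower with NU6102, among them CSTF2, a cleavage factor (0.61, SE 0.06, adjusted p = 0.000788), LSM10, a subunit of the U7 particle (0.45, SE 0.04, adjusted p = 0.0009), and ERI1, an exonuclease that trims the stem-loop end (-0.58, SE 0.05, adjusted p = 0.000497). ERI1 was lower in CDK2-/- too (-0.33, SE 0.05, adjusted p = 0.00538). In R50 against WT, 5 of the 14 were lower and 0 higher. Of 8 genes for decay and translation of histone mRNA, 3 were higher and 1 lower with NU6102, with rises of LSM1 (0.64, adjusted p = 0.000384), UPF1 (0.60, adjusted p = 0.00104) and EXOSC10 (0.47, adjusted p = 0.00109), all factors of mRNA decay. In CDK2-/- 1 of these 8 was higher and 1 lower (12.5% each, beside 17.5% and 15.1% of all tested genes). In R50 against WT 0 were higher and 3 lower. All tested genes gave 25.2% higher and 21.9% lower with NU6102, and 10.9% and 13.6% in R50 against WT. In lists this small, counts near these shares are no result about the list.

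Genes of DNA replication, also used in S phase, moved both ways with NU6102. Of 20 DNA replication genes, 11 were higher and 6 lower, with a median of 0.18. RRM2, a subunit of ribonucleotide reductase, rose 2.15-fold (SE 0.07 on the log2 scale, adjusted p = 0.00024), CDC6, a loader of the replicative helicase, by 0.82 on that scale (SE 0.07, adjusted p = 0.000474) and FEN1, a flap endonuclease, by 0.62 (SE 0.06, adjusted p = 0.00064). Of 11 histone chaperones, 5 were higher and 0 lower, among them HAT1, which acetylates new H4 (0.36, SE 0.05, adjusted p = 0.00257). In R50 against WT, 12 of the 20 replication genes were lower and 0 higher, as were 4 and 0 of the 11 chaperones. In CDK2-/- against WT, 8 replication genes were higher and 1 lower. In R50 against CDK2-/- 18 were lower and 0 higher, led by CDC6 (-0.95, SE 0.07, adjusted p = 0.000436). Beside these, 25.2% of all tested genes were higher and 21.9% lower with NU6102, and 17.5% and 15.1% in CDK2-/-. For R50 the shares were 10.9% higher and 13.6% lower against WT, and 15.6% and 21.2% against CDK2-/-.

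Replication-independent histones, which are made outside S phase as well, were split. Of 11 tested, 2 were higher with NU6102 (H3F3B and H2AFZ, the latter by 0.40, adjusted p = 0.00339) and 3 lower, of which H2AFJ had the largest fall (-0.78, SE 0.05, adjusted p = 0.00027). In CDK2-/- against WT, 3 were higher, led on the probes that stand for the genes by the linker H1F0 (0.56, SE 0.07, adjusted p = 0.00308), and 2 lower. That order depends on the probe: H3F3A was higher by 0.21 on its brightest probe and by 0.27, 0.72 and 0.80 on others. H3F3A was named after its values were seen. In R50 against WT, 0 were higher and 2 lower. The list's shares were 18.2% higher and 27.3% lower with NU6102, 27.3% and 18.2% in CDK2-/-, and 0% and 18.2% in R50. All tested genes gave 25.2% and 21.9%, 17.5% and 15.1%, and 10.9% and 13.6%. With 11 genes these shares lay near those of all genes.

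**Figure D5:**
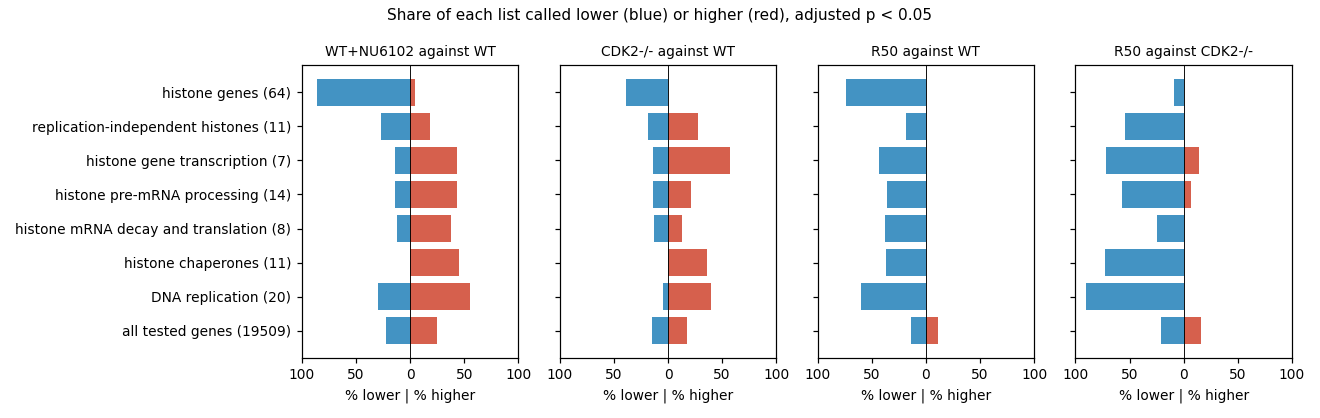
Share of the tested genes of each list (rows, with the number tested) called lower (blue, to the left) or higher (red, to the right) in the 4 comparisons, in percent. With NU6102 the histone genes are mostly lower (85.9%) while DNA replication genes are more often higher (55%) than lower (30%).

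To set the histone genes beside others of like signal, genes were taken by mean level over the 8 arrays. Of the 2832 tested genes with a mean level of at least 3, the median change with NU6102 was 0.12, against -0.50 for the 47 histone genes among them. In CDK2-/- these medians were 0.01 and -0.21, and in R50 against WT -0.08 and -0.37.

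The promoters of the members are shown because the genes moved as a group and the classes did so to different degrees. All 70 histone genes matched a RefSeq symbol of GRCh38.p14, and 63 had a promoter sequence there. The 250 bases before the start were searched on both strands for the octamer ATTTGCAT, the TATA box TATAAA and the CCAAT box CCAAT. The octamer was in 14 of 18 H2B promoters, 11 of 15 H2A, 1 of 11 H3, 0 of 13 H4 and 0 of 6 H1 promoters, against 1.66% of 27305 promoters of all genes. The TATA box was in 41 of 63 histone promoters (65.1%), against 11.1% of all. The CCAAT box was in every H1, H2A, H2B and H3 promoter and in 3 of 13 H4 promoters, against 33% of all. Such matches describe letters and show no binding. A promoter of each core class follows, with matches in capitals (neighbouring or overlapping matches run together), for HIST1H2AI (H2AC13, chr6:27807923-27808172, plus strand), HIST1H2BK (H2BC12, chr6:27146859-27147108, minus), HIST1H3H (H3C10, chr6:27809801-27810050, plus) and HIST1H4J (H4C11, chr6:27823842-27824091, plus), all on GRCh38.p14.
HIST1H2AI: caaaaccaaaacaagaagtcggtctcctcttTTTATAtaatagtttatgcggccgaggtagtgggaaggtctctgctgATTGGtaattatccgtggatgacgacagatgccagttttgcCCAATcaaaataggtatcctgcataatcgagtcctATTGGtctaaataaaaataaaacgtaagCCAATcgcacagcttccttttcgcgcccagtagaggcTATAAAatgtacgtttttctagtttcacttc
HIST1H2BK: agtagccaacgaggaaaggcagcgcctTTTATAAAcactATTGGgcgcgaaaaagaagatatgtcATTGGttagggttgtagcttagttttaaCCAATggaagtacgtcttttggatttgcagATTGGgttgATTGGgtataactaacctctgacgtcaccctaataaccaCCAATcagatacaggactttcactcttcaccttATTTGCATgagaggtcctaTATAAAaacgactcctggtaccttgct
HIST1H3H: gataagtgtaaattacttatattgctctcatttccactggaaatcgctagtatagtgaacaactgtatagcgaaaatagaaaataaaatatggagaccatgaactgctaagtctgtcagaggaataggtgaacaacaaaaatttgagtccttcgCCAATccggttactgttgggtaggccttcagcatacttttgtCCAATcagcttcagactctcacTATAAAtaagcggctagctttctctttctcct
HIST1H4J: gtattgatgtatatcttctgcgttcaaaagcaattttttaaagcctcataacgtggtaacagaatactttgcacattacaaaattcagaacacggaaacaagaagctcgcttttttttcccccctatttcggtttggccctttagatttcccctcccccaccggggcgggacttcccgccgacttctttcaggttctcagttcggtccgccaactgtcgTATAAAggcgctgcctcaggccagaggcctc
In each of the 4 a TATA box begins between 27 and 32 bases before the start. HIST1H2BK alone of the 4 holds the octamer, so the HIST1H2AI promoter differs in this from most H2A promoters. The HIST1H4J and HIST1H4K promoters were identical in 245 of 250 bases, and with NU6102 the probes that stand for these genes fell by 0.98 and 0.81. The stem-loop probe of HIST1H4K changed by -1.64, and it matched the HIST1H4J probe in 40 of 41 overlapping bases. The part of the promoters in these falls was not tested.

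The remaining members gave no test. HIST1H1B, HIST1H1T, HIST1H2AL, HIST1H2BA, HIST2H2BA and HIST2H4A had no probe above background on any array. Of these HIST1H1T and HIST1H2BA are testis histones, as are HIST3H3, described above, and HIST1H2AA, which was detected and fell with NU6102 (-0.87, SE 0.14, adjusted p = 0.00404).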

How the data were processed

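Cy3-labelled RNA of each sample was put on its own Agilent array. The authors scanned the arrays and deposited spot intensity values from Agilent Feature Extraction 11.5.1.1 (per the submitters' processing notes), background-subtracted and not normalized between arrays.

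After removal of control and outlier spots, log2 processed signals were scaled by subtracting the array's own 75th percentile, and repeated spots of 1 probe were replaced by their mean. The authors also deposited a table of log2 values, which lie within 0.0193 (median over probes of the largest difference) of these normalized values centred per probe on the median. It was used as an alternative. Tests covered 28677 of 50599 probes. Limma 3.58.1 in R 4.3.3 fitted all 8 arrays in 4 groups, with Benjamini-Hochberg adjustment over all tested probes and two-sided tests. The fit was tested on simulated data. The number of arrays limits the precision. The members and gene lists were chosen with earlier results of these data known. Named genes were NPAT, SLBP, the 3 largest called rises and falls per comparison among histone genes above background on all 4 arrays compared, the polyadenylated genes and the 3 smallest F-test p-values, and of each other list up to 3 of its largest called changes per comparison. Probe positions are on hg19 and come from the files of WT and WT+NU6102, and promoters come from RefSeq on GRCh38.p14. The same 2 WT arrays serve 3 of the 4 comparisons.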

Additional observations from a re-analysis of the deposited data

How the results depend on the processing

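The medians of the histone genes kept their direction under every alternative run. With NU6102 the count of lower genes lay between 49 and 57 except under the methods' t-test (14, beside 8.95% of all genes), and 3 were higher throughout. Quantile normalization moved that median to -0.63. In CDK2-/- against WT the count of 25 lower genes became 6 of 70 with no filter on dim probes (8.57%, all genes 5.51%), 42 with a prior variance that follows intensity (65.6%, all genes 17.8%) and 2 by the methods' t-test (3.12%, all genes 2.52%). In R50 against WT the count of 47 became 7 of 70 with no filter (10%, all genes 2.34%) and 0 by the methods' t-test (all genes 0.0308%). In R50 against CDK2-/- the count of 6 became 10 with normexp background correction, 1 with quantile normalization, 1 with no filter, 22 with a prior variance that follows intensity, 1 with the 4 arrays of the slide alone and 0 by the methods' t-test, where all genes gave 21.7%, 18.4%, 7.75%, 24.8%, 14.9% and 4.46%. The F-test count of 12 became 27 with normexp, 0 with no filter, 22 of 62 with probes above background on all 8 arrays, and 2 with the methods' one-way ANOVA (56 at an unadjusted p under 0.05), where all genes gave 35.5%, 2.29%, 34.1% and 9.25%. The cause of these moves was not tested.

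When single arrays were dropped, the numbers of lower genes ranged from 49 to 55 with NU6102, from 3 to 23 in CDK2-/-, from 5 to 46 in R50 against WT and from 1 to 5 in R50 against CDK2-/-, and F-test counts from 0 to 1. All genes gave 17.5% to 21.6%, 9.18% to 14.1%, 4.69% to 10.6% and 13% to 19.4% lower. The medians ranged from -0.54 to -0.42, from -0.24 to -0.19, from -0.41 to -0.30 and from -0.168 to -0.0579. Where an array was left out, the lone array of its group was assumed to vary like the others.

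Over all tested probes, arrays with the same replicate number did not deviate together, with correlations between -0.03 and 0.05. Most probes can vary on their own, so this cannot settle whether such arrays shared a culture or a labelling batch. The labels do not say whether they did. With the replicate block, 54, 17, 43 and 2 histone genes were lower in the 4 comparisons in the order above, beside 4155, 2722, 2253 and 3880 of all 19509 genes. For the single genes named, 768 of 894 values under alternatives kept their side of the threshold, 111 lost the call and 15 gained it. Where either value was called, 0 changed direction. Values without a call did change direction in places. HIST1H2BK in CDK2-/- against WT ranged from -0.19 to 0.16 over the alternatives that kept all arrays. NPAT in R50 against WT gained a call with quantile normalization (-0.34, adjusted p = 0.0488, range over the alternatives 0.0488 to 0.29). SLBP in R50 against WT gained one with normexp (-0.18) and with a prior variance that follows intensity, with an adjusted p from 0.0145 to 0.261 over the alternatives that kept all arrays. With 2 arrays per group, small changes of dim members such as NPAT, and of HIST1H2BE and HIST1H1A near background, cannot be resolved. Called genes could be as dim. HIST1H2APS1 stood at a mean of -3.19 in WT, where NPAT stood at -2.27. HIST4H4 stood at a mean of -2.55 with NU6102, where NPAT stood at -2.12.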
